A study of Mus musculus with 6 samples.

Results

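The piRNA pathway keeps transposons silent in the male germ line, and 10 of its genes were followed in mouse testes at 5 days postpartum (dpp): *Piwil2*, *Piwil4*, *Gtsf1*, *Mov10l1*, *Pld6*, *Asz1*, *Mael*, *Tdrd1*, *Tdrd5* and *Tdrd9*. They were picked by name for their known roles in prospermatogonia and spermatogonia, with earlier results of these data known. They were 10 of the 54532 genes in the table. The 3 Ctrl samples were whole testes labelled only as control, and the 3 cKO samples came from testes in which a *Vasa*-Cre transgene, active in germ cells, deleted floxed exons of *Srsf1*, which encodes a splicing factor. The study describes the cKO animals as *Vasa*-Cre *Srsf1* Fl/del, that is, with a floxed allele and a deleted allele, and whole testes also hold somatic cells, which were not separated. The alleles of the Ctrl animals, the strain of the sequenced mice and whether a sample was 1 animal or a pool were not given in the sources used here, although the methods call the samples of a group biological replicates. RNA was purified with poly-T beads and sequenced, and values were FPKM, in which the fragments of a gene are divided by its length and by a library size. No piRNA and no transposon transcript was measured.

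PIWI proteins are Argonaute-family proteins that carry piRNAs, small RNAs that guide them to transposon transcripts. In fetal and neonatal male germ cells, long precursor transcripts are cut at the mitochondrial surface, the products are loaded onto MILI (encoded by *Piwil2*) and MIWI2 (encoded by *Piwil4*), and MIWI2 directs DNA methylation to transposon copies in the nucleus. Loss of most of these genes in mice is known to release LINE1 elements and to stop spermatogenesis.

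Promoters are shown as a description of the genes, and no link between their sequence and the levels was tested. RefSeq gave promoter windows, 250 bases before to 50 bases after an annotated start, for 9 of the 10 genes, and 5 of these 9 held the palindrome CACGTG, a form of the E-box. Below, the 250 bases before the start are written 5′ to 3′ on the strand of the gene (build GRCm38.p6), with CACGTG in capitals. They end earlier for *Mov10l1* and *Mael*, where the deposited table starts the gene earlier. The windows are chr15:88982744-88982908 (plus strand) for *Mov10l1*, chr11:59787658-59787907 (minus) for *Pld6*, chr1:166238748-166238994 (minus) for *Mael*, chr19:56825959-56826208 (plus) for *Tdrd1* and chr12:111971309-111971558 (plus) for *Tdrd9*.
Mov10l1: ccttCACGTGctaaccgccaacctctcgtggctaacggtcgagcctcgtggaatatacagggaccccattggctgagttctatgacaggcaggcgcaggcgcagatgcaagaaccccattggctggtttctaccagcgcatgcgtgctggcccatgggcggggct
Pld6: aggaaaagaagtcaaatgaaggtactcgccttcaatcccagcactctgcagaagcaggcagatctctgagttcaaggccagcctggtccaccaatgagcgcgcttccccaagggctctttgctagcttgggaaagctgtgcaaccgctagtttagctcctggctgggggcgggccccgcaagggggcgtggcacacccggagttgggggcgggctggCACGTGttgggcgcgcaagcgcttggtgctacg
Mael: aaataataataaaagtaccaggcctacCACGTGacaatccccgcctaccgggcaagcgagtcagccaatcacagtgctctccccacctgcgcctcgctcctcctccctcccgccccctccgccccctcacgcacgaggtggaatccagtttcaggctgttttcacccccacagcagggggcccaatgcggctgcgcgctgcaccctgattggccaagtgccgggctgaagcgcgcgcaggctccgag
Tdrd1: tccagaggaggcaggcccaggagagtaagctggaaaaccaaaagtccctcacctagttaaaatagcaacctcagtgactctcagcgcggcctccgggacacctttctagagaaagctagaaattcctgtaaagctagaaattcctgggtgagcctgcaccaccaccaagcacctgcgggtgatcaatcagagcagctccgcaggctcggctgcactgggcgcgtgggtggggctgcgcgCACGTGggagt
Tdrd9: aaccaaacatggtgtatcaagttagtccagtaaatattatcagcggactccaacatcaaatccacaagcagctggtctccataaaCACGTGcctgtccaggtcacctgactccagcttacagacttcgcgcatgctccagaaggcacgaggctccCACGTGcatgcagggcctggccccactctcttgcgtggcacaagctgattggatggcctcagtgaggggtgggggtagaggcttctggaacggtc

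The palindrome lay 246 bases before the start in *Mov10l1*, 223 in *Mael*, 33 in *Pld6* and 11 in *Tdrd1*, and *Tdrd9* held it at 165 and 95 bases. It was present in 7.15% of all 32851 promoters of the same length, in 10.9% of the 14281 promoters with at least 10 CpG pairs, and in 11.6% of the 10873 tested genes that had a promoter. Among other genes of the pathway, 6 of 16 held it (*Ddx4*, *Dnmt3l*, *Fkbp6*, *Piwil1*, *Stk31* and *Wdr77*), against 2 of 9 germ-cell markers and 0 of 14 genes that silence transposons in many cell types. Being its own reverse complement, CACGTG reads the same on both strands. Other motifs were searched on both strands. TTCCCGC was in 1 of the 9 (*Tdrd5*), in 4.60% of all promoters and in 9.84% of the tested genes that had a promoter. TGACGTCA was in 0 of the 9, in 1.79% of all promoters and in 3.44% of those tested genes. A gene counts if any of its promoters holds the motif, so the shares of tested genes are the like measure. TGACGTCA can share a pair of letters at either end with the E-box. All 9 genes had a promoter with at least 10 CpG pairs. The promoter with the most CpG pairs of each gene held 10 to 48 (median 20). Other promoters of these genes held as few as 0 (*Piwil4*) and 3 (*Tdrd1*). The median over all single promoters was 7, which is not a like measure. The motifs were chosen after the values were seen, and a match describes letters, not a bound site.

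**Figure D1:**
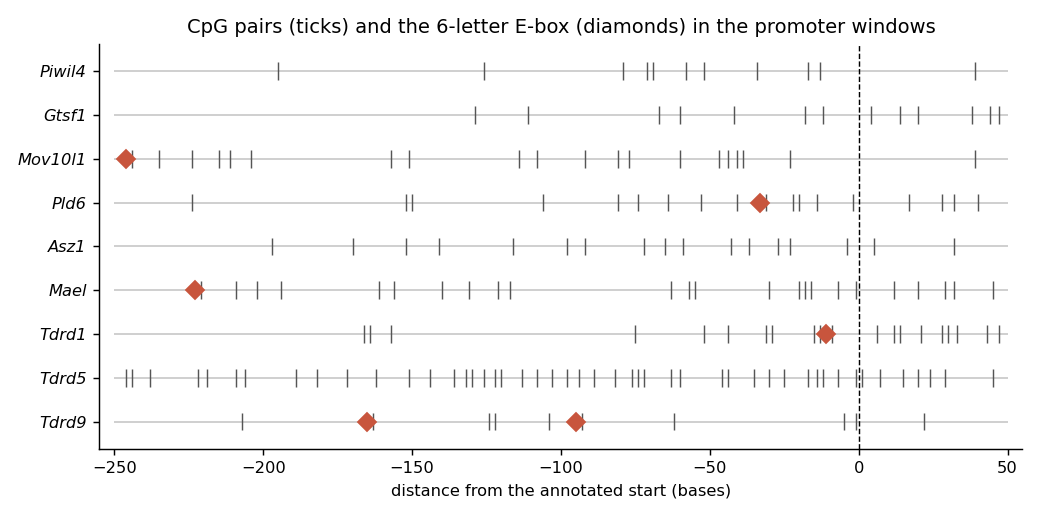
Positions of CpG pairs (ticks) and of CACGTG (diamonds) in the promoter windows of 9 piRNA genes, 1 window for each gene; the x axis is the distance in bases from the annotated start. The palindrome sits at a different distance in each of the 5 genes that hold it, from 246 to 11 bases before the start.

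Reads per gene could be recovered from the FPKM, and the libraries held between 15448191 and 18964743 reads in genes. *Srsf1* itself had 82.1, 89.1 and 88.4 FPKM in Ctrl against 45.1, 46.3 and 51.6 in cKO, or 55.1% of the Ctrl mean. The Ctrl 2 library stood apart in germ-cell genes: each of the 11 germ-cell markers was 1.58 to 4.02 times (median 2.26) as high in Ctrl 2 as the mean of Ctrl 1 and Ctrl 3. Somatic markers differed too: by the same measure the 8 Sertoli cell markers were at 0.50 to 0.83 (median 0.73) and the 4 macrophage markers at 0.65 to 0.93. The 6 Leydig cell markers were at 0.59 to 1.49 (median 0.83). The RNA protocol in the labels names retinas, whereas the tissue is labelled testis. Of 6 retina markers the highest value in any library was 0.278 FPKM, 2 were at 0 in all libraries, and the germ, Sertoli and Leydig cell markers were all above the expression filter.

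All 10 piRNA genes had a lower mean in cKO than in Ctrl testes, and for 9 of them every cKO sample lay below every Ctrl sample. The exception was *Piwil4*, the gene with the lowest level. Non-overlap in this direction was found in 12.8% of the 16206 genes tested, that is, those that averaged 0.5 FPKM or more over the samples, and all 10 piRNA genes met this filter. The mean level in cKO was 15.0% to 63.4% of Ctrl, with a median of 27.4%. When Ctrl 2 was left out, 9 genes (all but *Piwil4*) lay below Ctrl, beside 15.9% of all tested genes, and the median was 39.3% (22.3% to 72.6%).

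None of the 10 passed the limma test at an adjusted p of 0.05, and neither did any other gene, so 0.0% of tested genes were called lower. The deleted gene *Srsf1* did not pass either, although no gene had a lower adjusted p (log2 fold change -0.85 ± 0.09 SE, limma adjusted p = 0.058). Other genes shared this adjusted value. A count of 0 is thus also a limit of this test. The study, with DESeq2 on counts at the same threshold, reported genes in both directions. At an unadjusted p under 0.05, 9 of the 10 were lower, beside 9.31% of all tested genes (1508 lower and 1069 higher). The median log2 fold change of the 10 was -1.41 on the log2(FPKM + 1) scale, and the median of all tested genes was 0.0027. When the test was run on the 13204 protein-coding genes alone, 4 passed (*Mov10l1*, *Mael*, *Gtsf1* and *Asz1*), where 1.33% of the genes in that test were called lower. When limma voom was run on the recovered reads, 2 passed (*Mael* and *Mov10l1*), where 0.376% of genes were called lower.

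**Figure D2:**
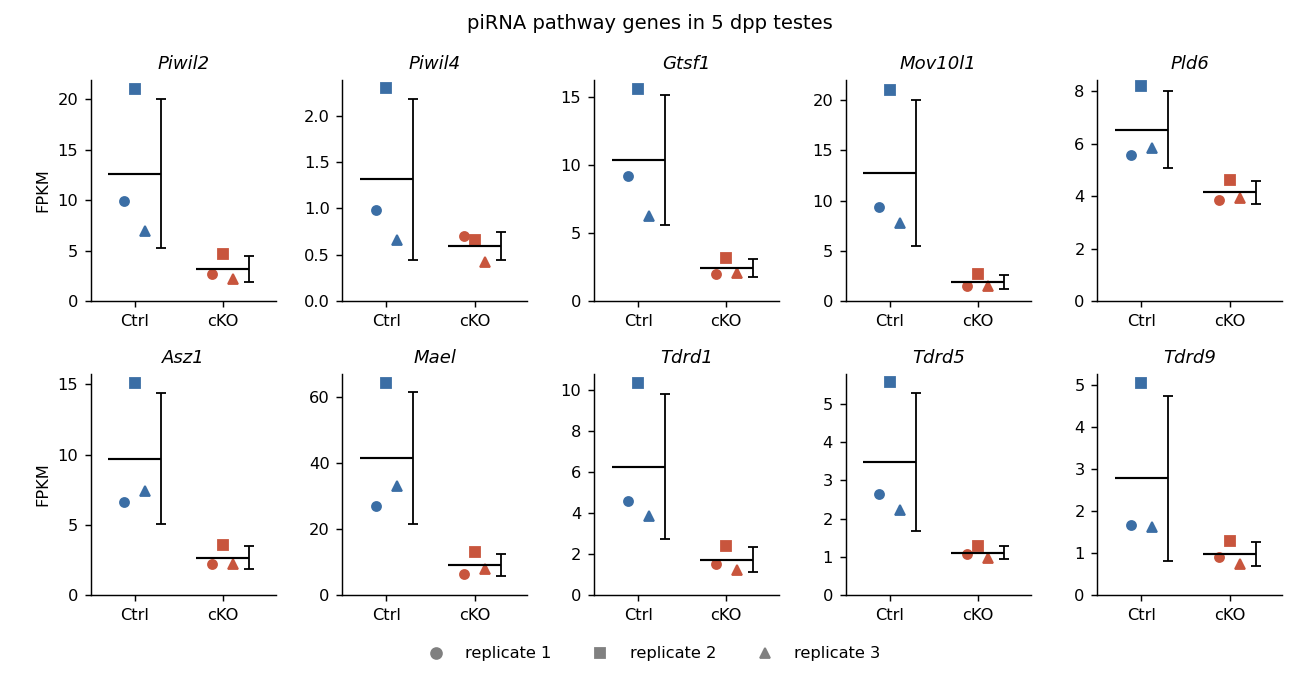
FPKM of the 10 piRNA genes in each testis sample (symbols mark the replicate), with the group mean (line) and SD (bar, n = 3); each panel has its own y axis starting at 0. Ctrl 2 is the highest sample for every gene, and the groups overlap only for *Piwil4*.

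The mRNAs of the PIWI proteins were at very different levels. *Piwil2* (ENSMUSG00000033644, chr14:70372477-70429383) encodes MILI, the PIWI protein present in germ cells from fetal life onwards. Its level was 9.98, 20.99 and 6.92 FPKM in Ctrl against 2.68, 4.64 and 2.25 in cKO. The lowest Ctrl sample was 1.49 times the highest cKO sample, and the log2 fold change was -1.61 ± 0.38 (SE, n = 3 per group, limma adjusted p = 0.141). *Piwil4* (ENSMUSG00000036912, chr9:14696230-14740733) encodes MIWI2, which enters the nucleus of prospermatogonia around birth and is known to be shut down soon after. It was at 0.987, 2.29 and 0.660 FPKM in Ctrl against 0.708, 0.656 and 0.421 in cKO, from 35 to 235 reads. Ctrl 3 lay within the cKO range, Ctrl 1 and Ctrl 2 lay above it, and the log2 fold change of -0.48 ± 0.26 (SE) did not pass (limma adjusted p = 0.412). Without Ctrl 2 the cKO mean of *Piwil4* was 72.2% of Ctrl, compared with 45.3% with it, and the log2 fold change was -0.19.

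*Gtsf1* (ENSMUSG00000022487, chr15:103402405-103430470) encodes a small zinc-finger protein that works as a cofactor of PIWI proteins. It was at 9.20, 15.6 and 6.25 FPKM in Ctrl against 2.01, 3.19 and 2.05 in cKO. The lowest Ctrl sample was 1.96 times the highest cKO sample, and the log2 fold change was -1.66 ± 0.29 (SE, limma adjusted p = 0.101).

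Among the genes that make piRNAs, *Mov10l1* and *Pld6* lay at opposite ends of the range. *Mov10l1* (ENSMUSG00000015365, chr15:88982909-89055152) encodes the RNA helicase that feeds precursor transcripts into processing. Its level was 9.33, 20.99 and 7.78 FPKM in Ctrl against 1.47, 2.69 and 1.56 in cKO. This was the widest gap of the 10 genes: the lowest Ctrl sample was 2.89 times the highest cKO sample, and the cKO mean was 15.0% of Ctrl (log2 fold change -2.14 ± 0.34 SE, limma adjusted p = 0.088). *Pld6* (ENSMUSG00000043648, chr11:59783897-59787645) encodes MitoPLD, the mitochondrial surface nuclease that cuts precursors. It was at 5.59, 8.22 and 5.83 FPKM in Ctrl against 3.87, 4.63 and 3.94 in cKO, or 63.4% of Ctrl. The groups did not overlap but lay close, with a log2 fold change of -0.54 ± 0.15 (SE, limma adjusted p = 0.174). *Asz1* (ENSMUSG00000010796, chr6:18050964-18109061) encodes GASZ, a scaffold that holds the piRNA machinery on mitochondria. It was at 6.62, 15.1 and 7.44 FPKM in Ctrl against 2.20, 3.60 and 2.22 in cKO, and every Ctrl sample was at least 1.84 times any cKO sample (log2 fold change -1.48 ± 0.29 SE, limma adjusted p = 0.107).

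*Mael* (ENSMUSG00000040629, chr1:166201201-166238747) encodes maelstrom, a germ granule protein needed for transposon silencing. It had the highest level of the 10 in every sample, at 27.1, 64.3 and 33.3 FPKM in Ctrl against 6.45, 13.1 and 7.88 in cKO. The lowest Ctrl sample was 2.07 times the highest cKO sample, and the cKO mean was 22.0% of Ctrl (log2 fold change -2.03 ± 0.35 SE, limma adjusted p = 0.10).

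Tudor domain proteins bind methylated arginines of PIWI proteins and gather the pathway into granules. *Tdrd1* (ENSMUSG00000025081, chr19:56826209-56870012), a partner of MILI, was at 4.59, 10.3 and 3.87 FPKM in Ctrl against 1.52, 2.40 and 1.22 in cKO. *Tdrd5* (ENSMUSG00000060985, chr1:156255296-156303664), which binds piRNA precursors, was at 2.64, 5.56 and 2.23 FPKM in Ctrl against 1.08, 1.29 and 0.961 in cKO. *Tdrd9* (ENSMUSG00000054003, chr12:111971559-112068854), a helicase that partners MIWI2, was at 1.67, 5.06 and 1.61 FPKM in Ctrl against 0.915, 1.29 and 0.741 in cKO. In none of the Tudor genes did the groups overlap, and the log2 fold changes were -1.34 ± 0.32 (SE) for *Tdrd1*, -1.01 ± 0.26 for *Tdrd5* and -0.82 ± 0.33 for *Tdrd9*. Their limma adjusted p-values were 0.149, 0.158 and 0.294. Without Ctrl 2 the log2 fold change of *Tdrd9* was -0.42, and its cKO mean was 60.0% of Ctrl instead of 35.4%. The changes on this scale shrink with level because 1 FPKM was added before the logarithm, and with limma voom on reads the same genes stood at -1.79, -1.55 and -1.35.

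The 10 genes varied together among the Ctrl samples as well as between the groups. Each was highest in Ctrl 2, at 1.44 (*Pld6*) to 3.09 (*Tdrd9*) times the mean of the other Ctrl samples, with a median of 2.37. In cKO, sample 2 was 1.16 to 1.88 times the mean of the others. Summed over the 10 genes, the level was 77.7, 168 and 75.8 FPKM in Ctrl against 22.9, 37.5 and 23.3 in cKO, or 26.0% of Ctrl. The summed germ-cell markers moved with it, at 110, 261 and 117 FPKM in Ctrl against 27.2, 49.7 and 39.0 in cKO, or 23.7% of Ctrl. Of the 11 markers, 10 were lower without overlap, beside 12.8% of all tested genes. In whole testes, fewer germ cells and less of an RNA per germ cell cannot be told apart.

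Of 24 other genes of the piRNA pathway and of germline transposon control, 19 were above the filter. In cKO 14 of them were lower without overlap, beside 12.8% of all tested genes. Of the 19, 0 were higher without overlap and 0 passed the limma test. Their median log2 fold change was -1.28. In the test of protein-coding genes alone 7 passed, where 1.33% of genes were called lower. With limma voom 2 passed, where 0.376% of genes were called lower. *Rnf17*, a Tudor protein gene, was at 4.30, 11.6 and 4.66 FPKM in Ctrl against 0.570, 1.602 and 0.985 in cKO. *Fkbp6*, which encodes a co-chaperone used in piRNA amplification, was at 26.6, 51.8 and 32.8 FPKM in Ctrl against 6.27, 13.6 and 9.86 in cKO. *Tdrkh*, which encodes a mitochondrial Tudor partner of PIWI proteins, had the lowest adjusted p of the list (log2 fold change -1.38 ± 0.21 SE, limma adjusted p = 0.086). *Ddx4*, the *Vasa* gene whose promoter drives the Cre, was at 26.3, 65.1 and 29.9 FPKM in Ctrl against 8.01, 15.8 and 9.43 in cKO.

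The groups overlapped for 5 of these 19. *Prmt5* and *Wdr77* encode the arginine methyltransferase complex that marks PIWI proteins, and were at 87.2% and 90.5% of Ctrl. *Mybl1*, the transcription factor of meiotic piRNA clusters, was at 104% of Ctrl, and *Dnmt3c*, the DNA methyltransferase of young transposons, at 85.7%. *Btbd18*, a nuclear factor for piRNA cluster transcription, was at 44.0%. Below the filter were *Piwil1*, *Tdrd6*, *Gtsf1l*, *Spocd1* and *Dnmt3l*.

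The genes that silence transposons in many cell types were used as a contrast, and their median cKO level was 91.9% of Ctrl. Of 15 such genes 14 were tested and *Trex1* was listed at 0 in all samples. Their median log2 fold change was -0.11, and 9 of the 14 overlapped between groups. Without overlap 5 were lower, beside 12.8% of all tested genes, and 0 were higher. At an unadjusted limma p under 0.05, 4 were lower, beside 9.31% of all tested genes. In the main, protein-coding and voom fits 0 passed the limma test. *Trim28*, the co-repressor recruited by zinc-finger proteins, was at 106% of Ctrl, *Setdb1*, an H3K9 methyltransferase, at 88.2%, and *Mov10*, the somatic paralogue of *Mov10l1*, at 99.96%. *Hells*, a chromatin remodeller needed for DNA methylation at repeats, was the lowest at 55.7% of Ctrl (limma adjusted p = 0.177). Also lower without overlap were *Mphosph8* (71.0%), *Pphln1* (77.9%), *Uhrf1* (82.2%) and *Samhd1* (88.8%). In Ctrl 2 the list had a median of 1.04 times the other Ctrl samples. The Sertoli cell list had a median log2 fold change of -0.04 with 1 of 8 genes lower (*Cldn11*) and 1 higher (*Amh*) without overlap, the Leydig cell list 0.47 with 3 of 6 higher, and the macrophage list 0.05 with 0 of 4 in either direction. The share of all tested genes that were higher without overlap was not computed, so the counts of higher genes have none beside them. The part of these lists in the lower piRNA gene values was not tested.

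**Figure D3:**
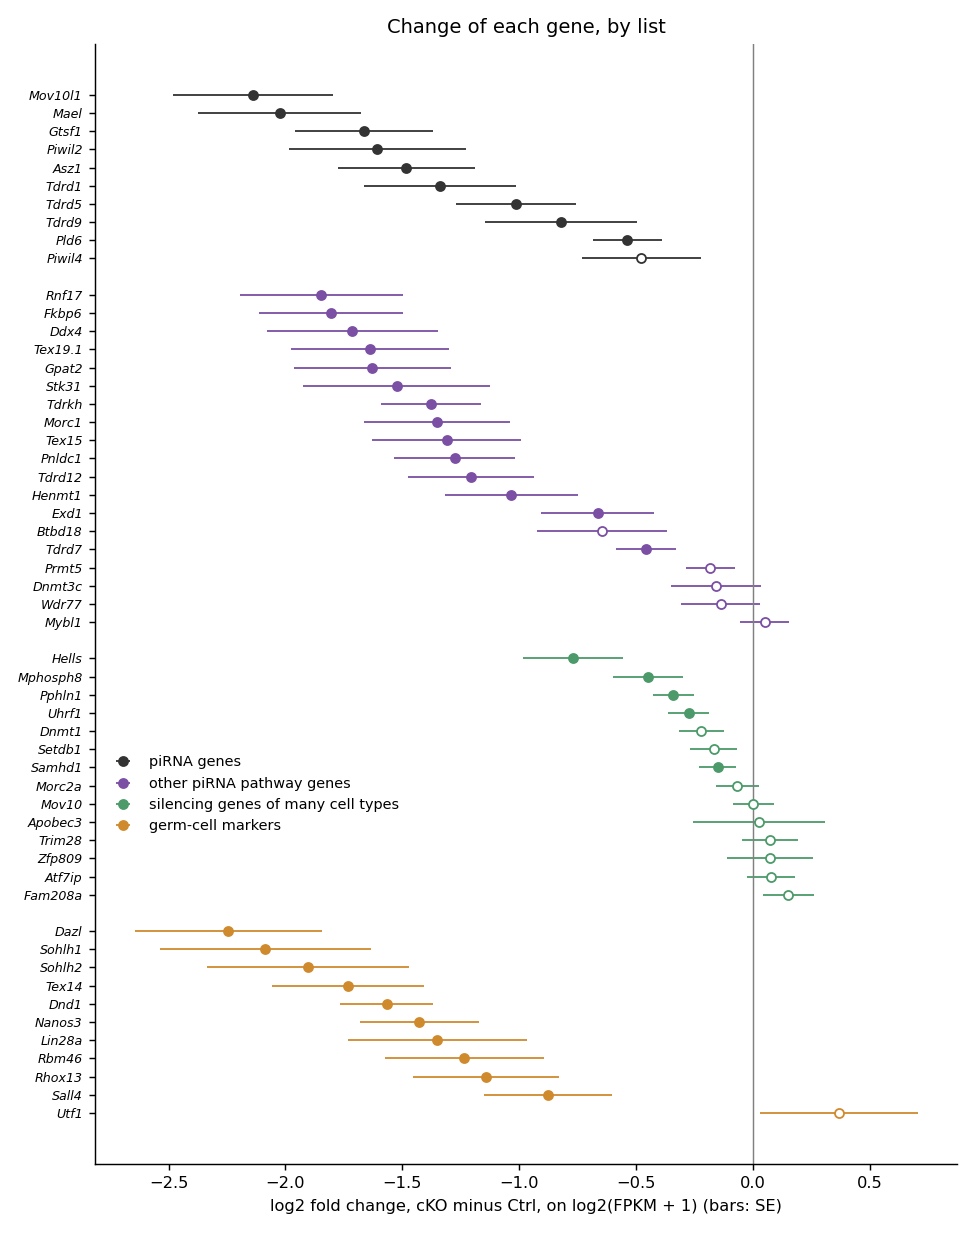
Log2 fold change (cKO minus Ctrl, log2(FPKM + 1) scale) of each tested gene with its SE, by list; filled circles mark genes whose Ctrl and cKO samples do not overlap (n = 3 each). The 10 piRNA genes (-2.14 to -0.48) and most other pathway genes lie left of 0 with 10 of the 11 germ-cell markers, while the broadly expressed silencing genes lie between -0.77 and 0.15.

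To set the piRNA genes beside germ-cell RNAs, each was divided in each sample by the geometric mean of the 11 germ-cell markers, none of which is a piRNA gene here. The markers themselves were at 15.7% (*Sohlh1*) to 128% (*Utf1*) of Ctrl. The study reports lower *Dnd1* RNA in cKO, and *Nanos3* lower by RNA-seq but unchanged by RT-qPCR. Whether a marker changed per germ cell was not tested, so the ratio is not a measure against germ-cell number. That mean was 6.45, 14.3 and 5.76 FPKM in Ctrl against 1.94, 3.16 and 2.64 in cKO. Of the 10 genes, 6 overlapped between groups on this ratio, among them *Piwil2* at 87.8% of the Ctrl ratio, *Asz1* at 92.2% and *Tdrd1* at 95.1%, and, above the Ctrl ratio, *Tdrd5* at 112%, *Tdrd9* at 130.1% and *Piwil4* at 171%. *Mov10l1* was lower relative to the markers, with ratios of 1.45, 1.47 and 1.35 in Ctrl and 0.758, 0.851 and 0.593 in cKO, or 51.6% of Ctrl. *Pld6* was higher relative to the markers, with ratios of 0.867, 0.575 and 1.01 in Ctrl and 1.99, 1.47 and 1.496 in cKO, or 202% of Ctrl. *Mael* (72.1%) and *Gtsf1* (78.3%) were lower without overlap. The ratio was computed for the 10 genes only, so these counts have no share of all tested genes beside them.

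None of these ratios passed a test: 3 against 3 samples cannot give an exact two-sided permutation p below 0.1, and over the 10 genes the lowest adjusted value was 0.25. The marker *Utf1* went against the others, at 128% of Ctrl, and at 256% without Ctrl 2. With *Utf1* left out, a choice made after its values were seen, 1 gene was lower (*Mov10l1*, 60.7%) and 3 were higher (*Piwil4*, *Tdrd5* and *Pld6*, the last at 240.04%), and *Mael* and *Gtsf1* overlapped between groups. Without cKO 3, 5 genes were higher relative to the markers, and without Ctrl 2, 3 were. Non-overlap is easier to reach with fewer samples, and the share of all genes was not computed here either.

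**Figure D4:**
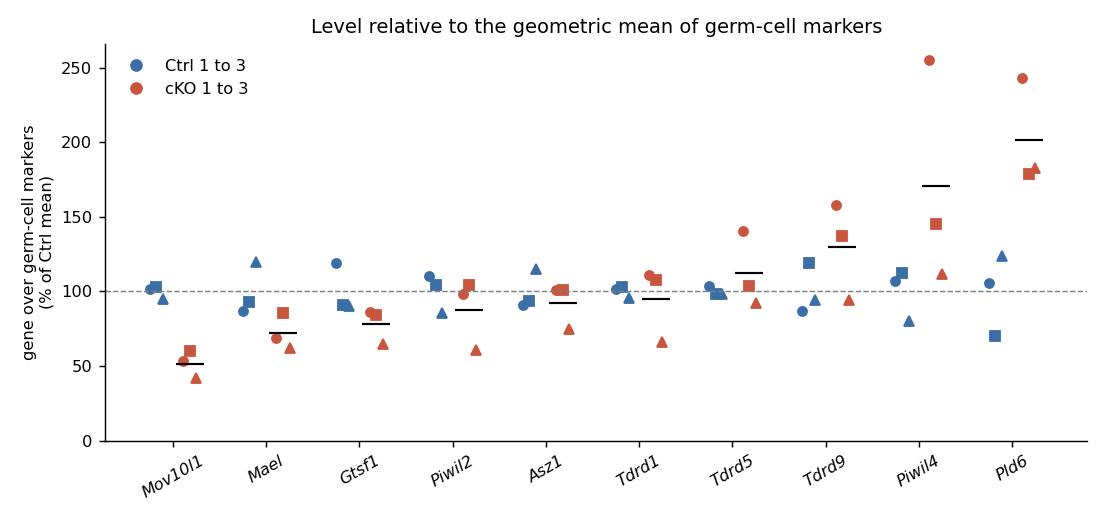
Each piRNA gene divided by the geometric mean of 11 germ-cell markers in the same sample, as a percentage of the Ctrl mean ratio (dashed line at 100), with Ctrl samples in blue, cKO samples in red and the cKO mean as a line. *Mov10l1* is lowest at 51.6% and *Pld6* highest at 202%.

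The order of the 10 genes by FPKM, which is scaled to gene length, was otherwise nearly the same in all samples. *Mael* was highest, and *Tdrd5*, *Tdrd9* and *Piwil4* ranked 8, 9 and 10 in all 6 samples. *Pld6* ranked 6, 7 and 6 in Ctrl and 2, 3 and 2 in cKO, whereas *Mov10l1* ranked 3, 2 and 2 in Ctrl and 7, 6 and 6 in cKO. As a ratio within a sample, *Mov10l1* over *Pld6* was 1.67, 2.55 and 1.33 in Ctrl and 0.381, 0.581 and 0.396 in cKO. This pair was chosen after its values were seen. The ratio needs no marker list, but like the marker ratios it can move with the germ-cell share where an RNA is also made in somatic cells. Whether any of the 10 genes is made there was not tested. Neighbours in the middle of the order were close: in Ctrl, *Piwil2* (12.6 ± 7.40 FPKM, SD, n = 3), *Mov10l1* (12.7 ± 7.22), *Gtsf1* (10.3 ± 4.76) and *Asz1* (9.72 ± 4.69) differed by less than their spread. That spread includes Ctrl 2, the highest sample for each, so it does not measure order within a sample. In Ctrl 1, 2 and 3, *Piwil2* ranked 2, 3 and 4, *Gtsf1* 4, 4 and 5, and *Asz1* 5, 5 and 3. *Mov10l1* ranked above *Gtsf1* and *Asz1* in each.

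**Figure D5:**
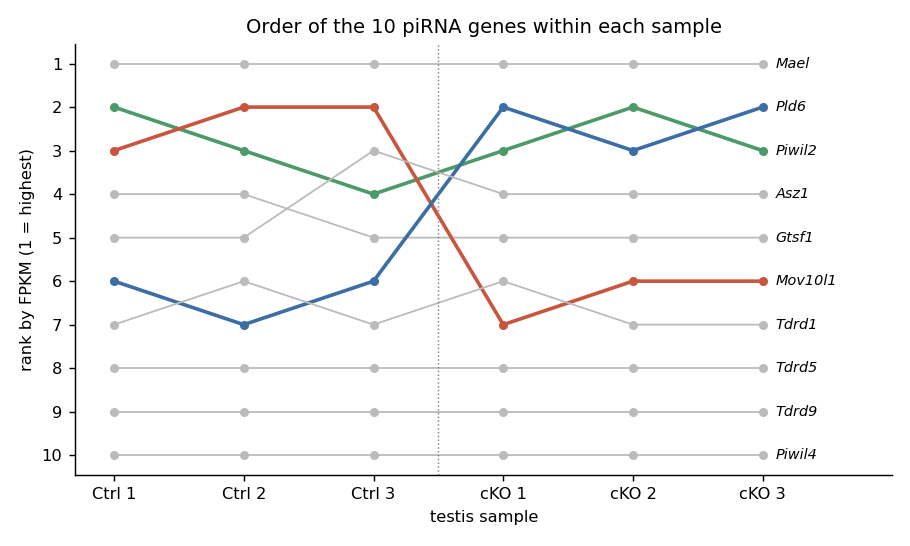
Rank of each piRNA gene by FPKM (y axis, 1 is the highest) in the 6 testis samples (x axis, Ctrl then cKO). *Mov10l1* (red) and *Pld6* (blue) exchange places between the groups, and *Mael*, *Tdrd5*, *Tdrd9* and *Piwil4* keep theirs.

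Outside the lists, 12028 protein-coding genes averaging 1 FPKM or more were compared with the mean profile of the 10 piRNA genes over the 6 samples. The nearest was *Taf9b*, which encodes a TBP-associated factor, at a root mean square difference of 0.078 on the log2(FPKM + 1) scale. It was at 10.5, 21.8 and 9.16 FPKM in Ctrl against 4.69, 5.73 and 4.32 in cKO. The next were *Xlr4b*, *Luzp4*, *Gm3376*, *Spint1*, *Gm15262*, *Sycp2* and *Uba1y*, with differences up to 0.134. *Xlr4b* has close copies in the genome, so its reads are uncertain. *Sycp2*, a gene of the synaptonemal complex, was at 2.83, 7.19 and 3.22 FPKM in Ctrl against 0.863, 1.70 and 1.05 in cKO. Of the 10 genes themselves *Tdrd1* was nearest to their mean profile, at 0.067, and *Piwil4* farthest, at 0.606.

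Few reads of the 10 genes could be shared with other genes. Overlapping genes were annotated for 5 of the 10, 8 in all, and none of them had over 3 reads in a sample. Of all 50-base stretches of their transcripts, 1.64% in *Piwil4* and 1.80% in *Tdrd5* were shared with other genes, mainly antisense transcripts, 0.0925% in *Tdrd1*, and none in the other 7.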

How the data were processed

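The authors aligned reads to mm10 with HISAT2 2.0.5 and counted them per gene with featureCounts, per the study's methods, and deposited 1 table of FPKM. The FPKM of all 6 samples, multiplied by gene length, were whole multiples of a step (100% of values within 0.01), so the reads were recovered for the alternative fit. Depth was 15448191 to 18964743 reads, and 3 reads of a 1 kb gene gave 0.158 to 0.194 FPKM, a floor that covers counting error only. The library size implied by the step was not the reads in genes. It was 15734427 against 15448191 reads in cKO 1, and 15449041 against 15759049 in cKO 3.

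Genes averaging 0.5 FPKM or more were tested on log2(FPKM + 1) with limma 3.58.1 in R 4.3.3 (mean-variance trend, two-sided, Benjamini-Hochberg over all 16206 genes, threshold 0.05), cKO against Ctrl with no covariate. This scale understates changes of low genes. The code was tested on simulated data. Ratios were compared by exact permutation in scipy 1.17.1. The genes and lists were chosen with earlier results of these data known. Genes named were the 10 members, those of the lists, *Srsf1*, and the 8 protein-coding genes nearest the members' mean profile. All 10 genes had the same position in GENCODE mouse release 21, and transcripts from that release were used for shared stretches. Promoters came from RefSeq. Alternatives were a pseudocount of 0.1, a filter at 1 FPKM, no filter, quantile normalization, TPM, no trend, protein-coding genes, a replicate block, limma voom and leaving out each sample.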

Additional observations from a re-analysis of the deposited data

How the results depend on the processing

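The direction of all 10 piRNA genes was the same in the 15 alternatives, over 149 values (the filter at 1 FPKM left out *Piwil4*), and their median log2 fold change lay between -1.80 and -1.06; in 11 of these values a gene newly passed the threshold. With limma's adjusted p, the main test called 0 genes lower and 0 higher. The counts lower and higher were 176 and 37 for protein-coding genes only, 61 and 22 with limma voom, and 84 and 14 with the replicate block; TPM gave 1 and 4, and no mean-variance trend gave 1 higher. Leaving out a sample gave 0 to 15 lower, the 15 without Ctrl 2, and 0 to 3 higher. The piRNA genes called were 4 for protein-coding genes, 2 with voom, 5 with the replicate block and 0 elsewhere, and the other pathway genes called were 7, 2 and 8 in the same order. Over all tested genes, the deviations of same-numbered samples were nearly uncorrelated (0.066, 0.016 and 0.088). For the 10 piRNA genes, sample 2 was above the mean of the others in both groups. The labels do not say whether samples were paired, and these values cannot settle it. Leaving out a sample left 9 to 10 piRNA genes lower without overlap, but with fewer samples the share of all tested genes was also higher, at 15.9% to 19.4%. Relative to germ-cell markers, the main counts of 3 lower and 1 higher became 1 lower with the median of the markers, and 1 lower and 3 higher with markers without *Utf1*; leaving out a sample gave 3 lower throughout and 1 to 5 higher. The ratio counts have no share of all tested genes beside them. The cause of the differences between settings was not tested. Of the 10 genes *Piwil4* had the fewest reads, 35 to 235 in a sample.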
